A study of Mus musculus with 9 samples.

Results

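Old and young wild-type mouse muscle after injury were compared across all expressed genes, with 6 of the 9 RNA libraries of the series. The muscle was the tibialis anterior, a hind limb muscle. Young wild-type mice, aged 4 to 6 months, gave 3 libraries, and old wild-type mice, aged 24 months, gave 3. The remaining 3 libraries, from old mice without P311, entered the fit as a group of their own and served to estimate the spread of each gene. No group was uninjured, so a difference with age cannot be separated into the state before injury and the response to it. What injury was made, how long before collection, the sex and strain of the mice and whether a library is 1 animal or a pool were not stated in the labels. The p-values therefore measure the spread between these libraries.

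Skeletal muscle repairs itself through resident stem cells, the satellite cells, which are activated by injury, divide and fuse into new fibres. Immune cells clear debris and fibro-adipogenic progenitors lay down matrix and send signals during that repair. In old muscle repair is slower, and protein turnover, mitochondrial function and inflammation are among the processes most often studied. The account below takes gene groups other than the ribosome, the respiratory chain and the matrix, and asks for each how its difference stood once the relation of expression to gene length had been removed.

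Sequencing gave 14222204, 15514343 and 18249081 reads in the young libraries and 22528289, 17730208 and 23133027 reads in the old ones. Values are FPKM, reads per length of gene and per scaled size of library. The size was not the total of reads. In all 9 libraries it was 2.04431e+07 times a median-of-ratios factor, the median over genes of a library's ratio to the mean of all libraries. Fold changes are old over young on the log2(FPKM + 0.1) scale, which understates the change of low genes. Muscle fibre genes were among the most abundant in all 6 libraries, with Acta1 at rank 3 of all genes by mean, Myh4 at rank 16 and Ckm, the muscle creatine kinase, at rank 22, as the tissue label says. Reads of mitochondrial genes made up 8.79% to 10.7% in young and 13.2% to 17.6% in old libraries. With limma, 768 of 14233 tested genes passed an adjusted p of 0.05, 482 higher (3.39%) and 286 lower (2.01%) in old muscle. Under scaling to total reads the balance turned, with 96 higher and 250 lower. The percentages under the deposited scaling are the background against which the counts of each group are read. An unadjusted p under 0.05 in limma was reached by 3748 of the 14233 genes, which is the background for every count of such genes below. The calls lay close to the threshold, with 739 of the 768 at an adjusted p above 0.03. The count was 14, 1 and 0 without young replicates 1, 2 and 3, 0 and 10 without old replicates 2 and 3, and 559 without old replicate 1. In the fits with 0 calls, 2741 and 2737 genes had an unadjusted p under 0.05. It was 1755, 934 and 435 without P311-/- replicates 1, 2 and 3. Every call named here was thus lost in at least 1 of these fits, and the adjusted p-values are best read as a ranking.

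Of the 63 gene lists examined, 60 lay outside ribosome, respiratory chain and matrix. Median log2 fold changes were above 0 in 33 of the 63 lists. The library medians of a list, taken after centring each gene on the 6 libraries, were higher in every old than in every young library for 19 lists and lower for 8, and they overlapped for 36. Among all genes, the median log2 fold change was 0.005. Under scaling to total reads that median moved to -0.12, and 11 lists with small positive medians (0.01 to 0.10) turned negative.

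**Figure D1:**
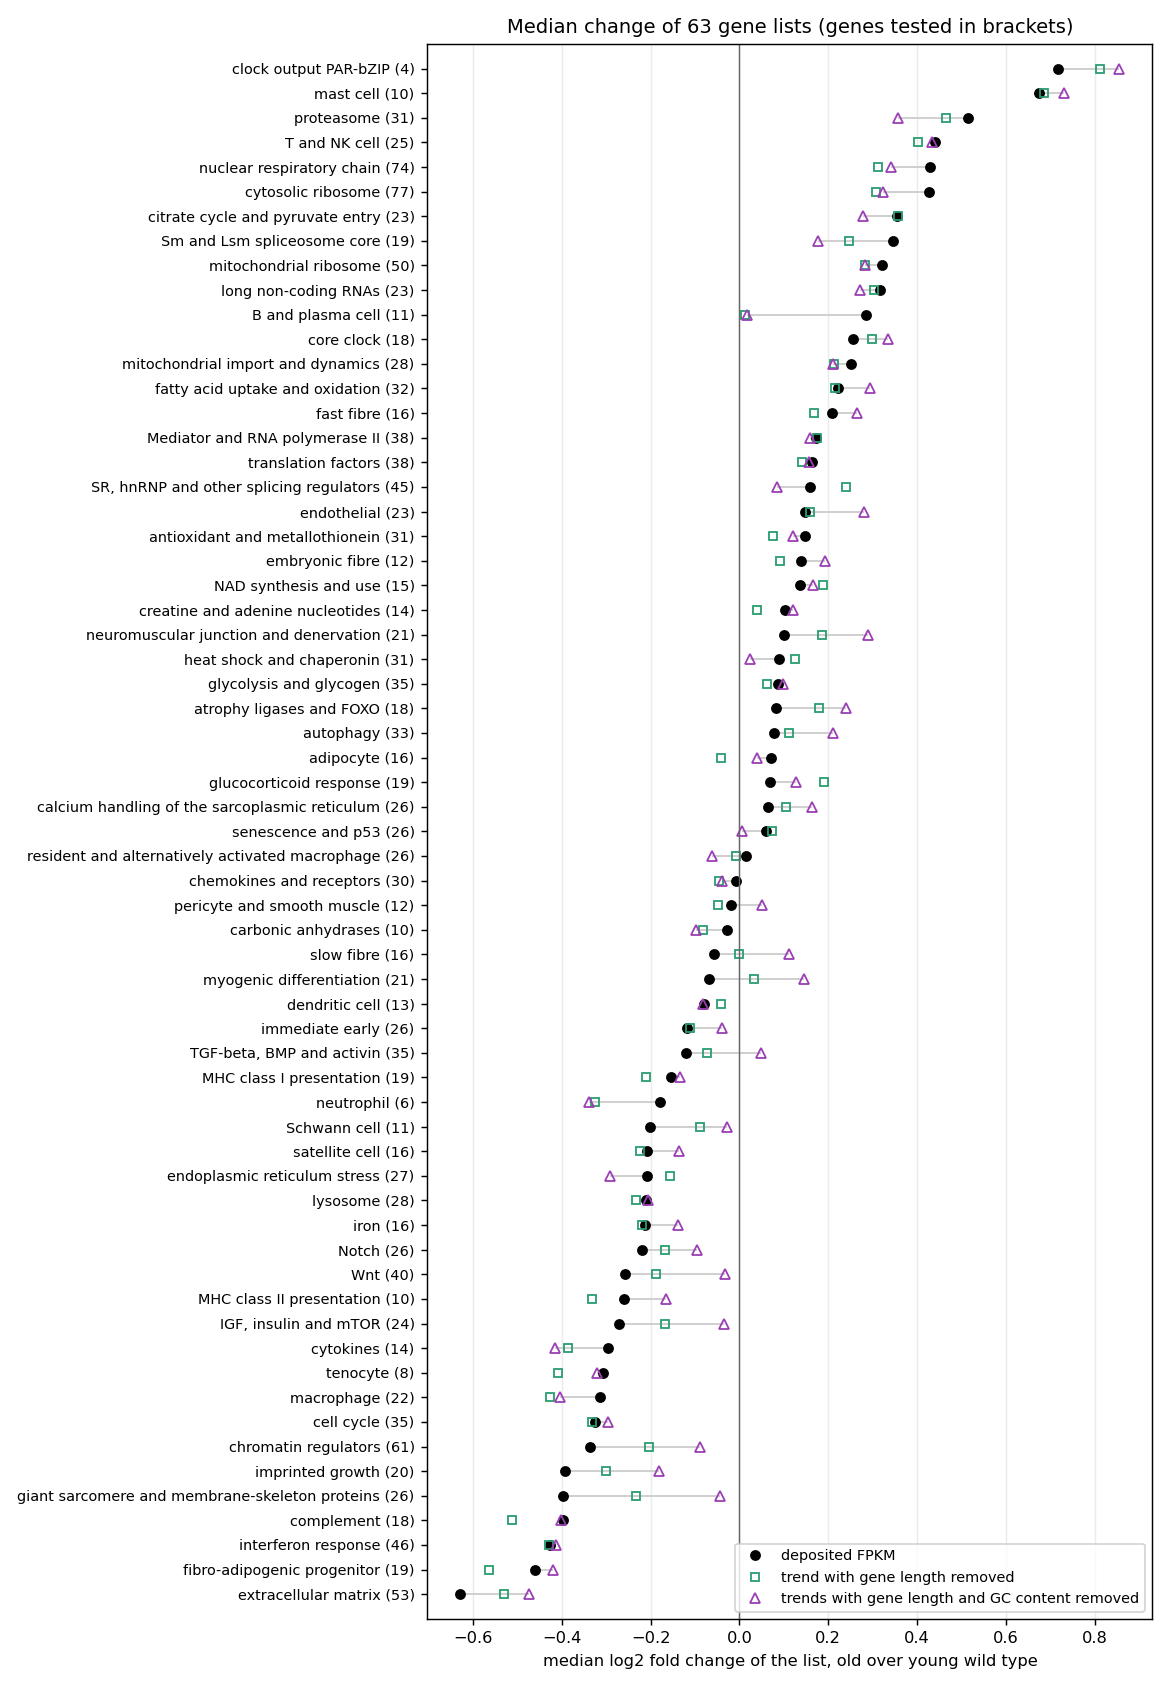
Median log2 fold change, old over young wild type, of each of the 63 gene lists (rows, with the number of genes tested), from the deposited FPKM (filled circles), after removal of the trend with gene length (squares) and after removal of the trends with length and GC content (triangles). The proteasome, mast cell and citrate cycle lists stay to the right under all 3, while the giant sarcomere and chromatin regulator lists, at -0.40 and -0.34, come to lie at -0.04 and -0.09.

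The proteasome, the protease complex that degrades ubiquitin-tagged proteins, was higher in old muscle. Of its 31 genes, 14 rose, where 3.39% of all genes rose, and none fell. All 31 had a log2 fold change above 0, and for 29 every old library exceeded every young library, which was the case for 19.0% of all genes. The library medians were -0.20, -0.22 and -0.34 in the young and 0.09, 0.28 and 0.36 in the old libraries, without overlap. The median log2 fold change was 0.51, and it ranged from 0.44 to 0.56 when 1 of the 6 libraries was left out. Both parts of the complex were represented. Psma2 (ENSMUSG00000015671, chromosome 13, 14613240 to 14674236, GRCm38 here and throughout) encodes a subunit of the outer ring of the core particle and stood at 19.8, 17.8 and 17.6 FPKM in the young libraries and 29.4, 33.7 and 34.3 FPKM in the old libraries (log2 fold change 0.82, SE 0.13, limma adjusted p = 0.0301). Psmc6 (ENSMUSG00000021832, chromosome 14, 45329788 to 45349705), an ATPase of the regulatory particle that unfolds substrates, stood at 32.7, 34.5 and 29.8 FPKM in the young libraries and 52.2, 76.3 and 67.7 FPKM in the old libraries (log2 fold change 1.0, SE 0.17, limma adjusted p = 0.0307). In both genes the lowest old library exceeded the highest young one by a wide margin. Psma4 and Psmb1, also of the core, rose by 0.82 and 0.70. Of the 3 genes for the catalytic subunits of the constitutive core, Psmb6 rose by 0.72 and Psmb7 by 0.65, while Psmb5 had 0.56 (limma adjusted p = 0.0732). Psmd1 and Psmd2, which encode the large scaffold subunits of the base of the regulatory particle, differed least, at 0.16 and 0.30 (limma adjusted p = 0.548 and 0.342). With the length trend removed, the median of the list was 0.46 and 7 members still passed, where 1.72% of all genes rose. With length and GC content removed it was 0.36, and no member passed.

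Other routes of protein breakdown gave few calls, and their lists differed less than the proteasome. Mstn, which encodes myostatin, the secreted inhibitor of muscle growth, stood at 7.57, 3.89 and 6.55 FPKM in the young libraries and 13.6, 13.7 and 13.7 FPKM in the old libraries (log2 fold change 1.23, SE 0.25, limma adjusted p = 0.0331). The 3 old libraries were nearly equal and above all young ones. Fbxo30, which encodes a ubiquitin ligase that promotes muscle loss, rose by 0.71. These were the only 2 calls among 18 atrophy and FOXO genes. Neither of the classical atrophy ligases passed: Trim63 had 0.30 and Fbxo32 0.15 (limma adjusted p = 0.543 and 0.850). Among 33 autophagy genes, Atg3 and Atg10 rose by 0.70 and 0.77; they encode the enzymes that attach LC3 to lipid and ATG12 to ATG5. The library medians of that list did not overlap, at -0.07, -0.02 and -0.02 in young and 0.02, 0.12 and 0.00 in old libraries. For 10 of its 33 genes every old library exceeded every young one, against 19.0% of all genes. Its median log2 fold change was 0.08, but -0.06 under scaling to total reads. The summed level was 804 to 911 FPKM in young and 985 to 1015 FPKM in old libraries for autophagy, and 255 to 279 FPKM and 309 to 322 FPKM for the atrophy and FOXO list, without overlap in either. Of 28 lysosomal genes, 22 had a log2 fold change below 0.

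Chaperones of the endoplasmic reticulum went the other way from the proteasome. Of 27 genes of the unfolded protein response, which raises folding capacity when unfolded protein accumulates in that compartment, 3 fell, where 2.01% of all genes fell, and none rose. The 3 promoters below are shown because they hold the letters of the ER stress response element, the motif through which the sensor ATF6 acts; they are those of the 2 called members with a match and of Hspa5, the best known gene of this response. The motif searched was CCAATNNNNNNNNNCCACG on both strands, and each sequence is the 250 bases before the annotated start from RefSeq (GRCm38.p6), 5′ to 3′ on the strand of the gene, with the match in capitals.
Creld2 (chr15:88819396-88819645, plus strand): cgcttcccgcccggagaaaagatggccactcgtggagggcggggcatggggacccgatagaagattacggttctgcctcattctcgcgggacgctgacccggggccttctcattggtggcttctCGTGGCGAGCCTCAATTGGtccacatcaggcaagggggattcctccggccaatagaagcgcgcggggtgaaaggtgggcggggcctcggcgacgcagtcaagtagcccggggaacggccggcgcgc
Calr (chr8:84846932-84847181, minus strand): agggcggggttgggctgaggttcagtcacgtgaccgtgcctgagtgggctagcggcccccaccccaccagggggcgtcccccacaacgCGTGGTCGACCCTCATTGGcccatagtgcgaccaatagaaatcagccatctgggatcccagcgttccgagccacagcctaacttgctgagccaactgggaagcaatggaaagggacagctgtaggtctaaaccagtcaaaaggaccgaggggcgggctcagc
Hspa5 (chr2:34771840-34772089, plus strand): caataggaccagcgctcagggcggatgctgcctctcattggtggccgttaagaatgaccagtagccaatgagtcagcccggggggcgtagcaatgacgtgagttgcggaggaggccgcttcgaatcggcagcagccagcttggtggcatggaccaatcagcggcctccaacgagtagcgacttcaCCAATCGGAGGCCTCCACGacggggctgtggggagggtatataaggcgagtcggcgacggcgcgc
The match began 126, 162 and 65 bases before the start of Creld2, Calr and Hspa5. In windows of 300 bases, which reach 50 bases past the start, the motif was present in 39 of 32851 windows (0.119%), which cover 27025 gene symbols. Of the 24 list members with a window, 8 had a match in any of their windows (33.3%), so the 2 shares count different units. The list was drawn up as genes of the response that this motif serves, so its higher share is not a result of these data. A match is a description of the letters and not proof of a site. The search covered 5 motifs in 4 lists. The unfolded protein response element (TGACGTGG) was found for 0 of 24 endoplasmic reticulum members and in 0.676% of all windows. The antioxidant response element (TGACNNNGC) was found for 4 of 25 proteasome, 7 of 24 endoplasmic reticulum and 5 of 13 core clock genes. It was found for 0 of 4 clock output genes and in 12.4% of all windows. The E-box and D-box, also searched, are not described here.

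Creld2 (ENSMUSG00000023272, chromosome 15, 88819646 to 88826683), an endoplasmic reticulum protein induced by that stress, stood at 9.86, 10.5 and 9.0 FPKM in the young libraries and 4.76, 3.98 and 5.06 FPKM in the old libraries (log2 fold change -1.08, SE 0.12, limma adjusted p = 0.0246). Its highest old value lay well below its lowest young value. Hyou1, a large chaperone of the HSP70 family, stood at 5.28, 5.97 and 5.95 FPKM in the young libraries and 3.05, 3.53 and 3.39 FPKM in the old libraries (log2 fold change -0.77, SE 0.12, limma adjusted p = 0.0301). Calr, which encodes the calcium-binding chaperone calreticulin, fell by 0.62 on the log2 scale (SE 0.15, limma adjusted p = 0.0477), with old replicate 1 nearest to the young libraries at 65.7 FPKM. Hspa5, the chaperone BiP, had -0.34 (adjusted p = 0.119) and Pdia6, a disulfide isomerase, -0.48 (adjusted p = 0.0917). Among the 8 members with the motif, 7 had a log2 fold change below 0 (median -0.26), and among the 16 without it, 10 did (median -0.10). The difference between these members was not tested. Creld2 was also 1 of the 13 genes that passed with length and GC content removed (log2 fold change -1.12, adjusted p = 0.0129), and the median of the list was -0.29 then. Library medians of the list overlapped between the groups. The cytosolic heat shock and chaperonin genes (31 tested) had a median of 0.09, and 1 rose, Hspb3, a small heat shock protein of muscle (0.66).

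**Figure D2:**
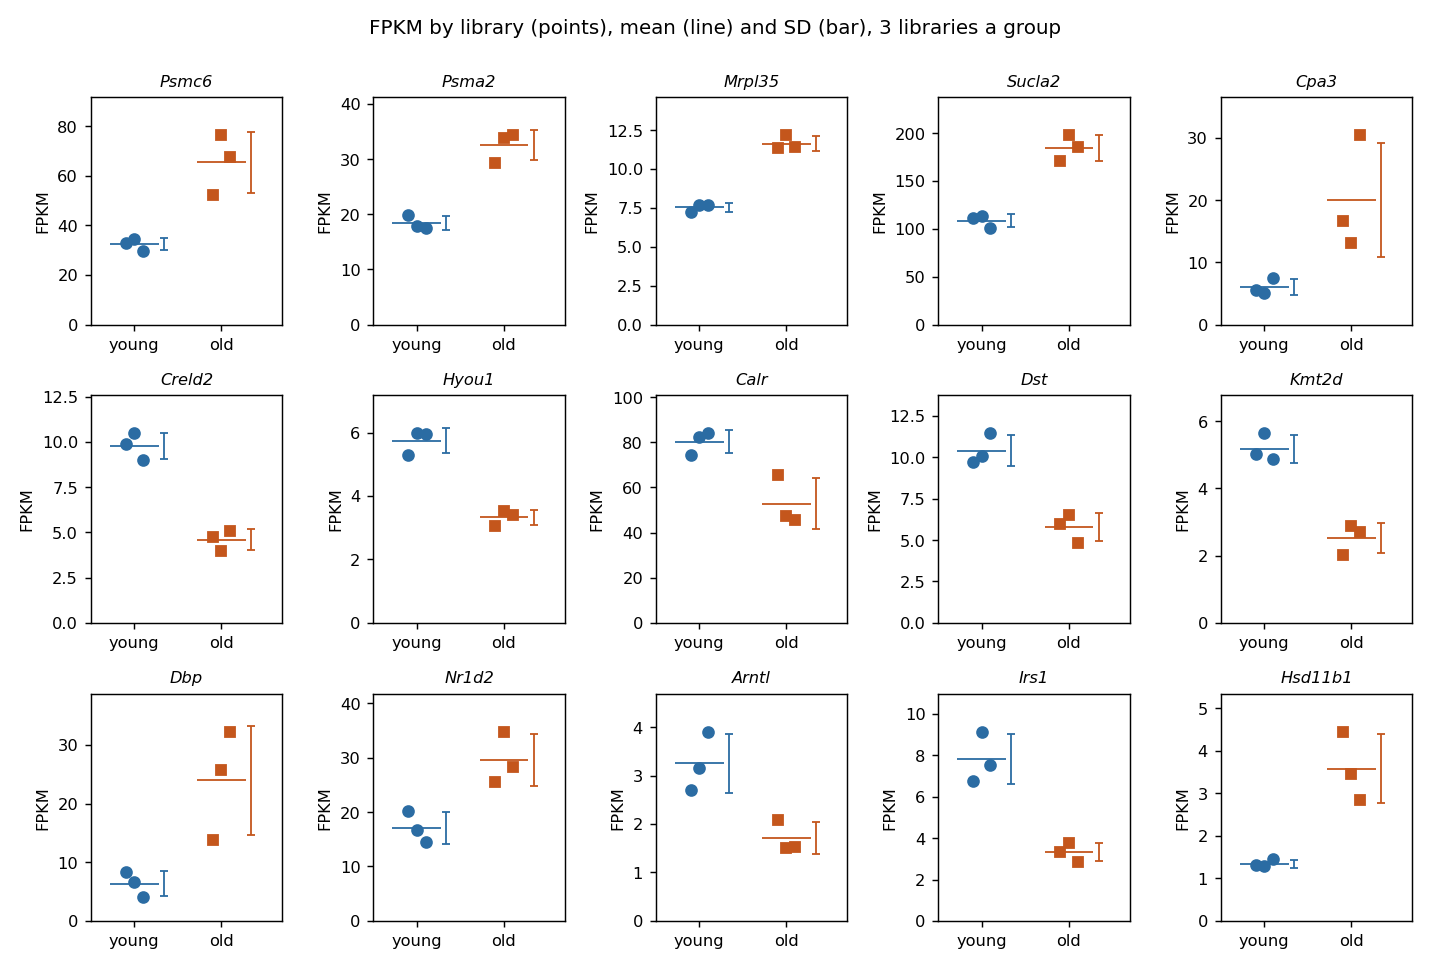
FPKM of 15 genes in each library (points), with the mean (horizontal line) and SD (bar) of the 3 young and 3 old wild-type libraries, on axes that start at 0. Creld2, for example, lies between 3.98 and 5.06 FPKM in the old libraries, below all young ones, and the groups do not overlap in any of the 15 genes.

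Mitochondrial genes outside the respiratory chain were higher as well. Of 50 genes of the mitochondrial ribosome, which translates the mitochondrial genome, 8 rose, none fell, and 47 had a log2 fold change above 0. Mrpl35 (ENSMUSG00000052962, chromosome 6, 71812997 to 71826969), a protein of its large subunit, stood at 7.2, 7.7 and 7.7 FPKM in the young libraries and 11.3, 12.2 and 11.4 FPKM in the old libraries (log2 fold change 0.62, SE 0.10, limma adjusted p = 0.0307), a narrow spread in both groups. Mrpl32, Mrpl33 and Mrpl20 rose by 0.93, 0.60 and 0.68. The median of this list was 0.32, 0.28 with length removed and 0.28 with length and GC content removed, so it moved little. In this list the longer genes were no lower than the shorter ones: the longer 25 had a median of 0.40 and the shorter 25 one of 0.26. In the citrate cycle, the oxidation of acetyl groups in the mitochondrial matrix, 22 of 23 genes were above 0 and 2 rose. Sucla2, a subunit of succinyl-CoA synthetase, stood at 112, 113 and 100.4 FPKM in the young libraries and 171, 198 and 186 FPKM in the old libraries (log2 fold change 0.77, SE 0.13, limma adjusted p = 0.0307). Mpc1, a subunit of the carrier that brings pyruvate into mitochondria, rose by 0.80. The median was 0.35 before and 0.36 after removal of the length trend. Of 28 genes of mitochondrial import and dynamics, Timm8b, a small translocase of the intermembrane space, and Hspe1, the co-chaperonin HSP10, rose by 0.93 and 0.43 (median 0.25). Ppargc1b, which encodes PGC-1-beta, a coactivator of mitochondrial genes, was lower, at 5.97, 6.09 and 5.02 FPKM in the young libraries and 1.98, 2.42 and 2.45 FPKM in the old libraries (log2 fold change -1.28, SE 0.16, limma adjusted p = 0.0246).

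Fuel genes followed the mitochondrial ones only in part. Of 32 genes of fatty acid uptake and oxidation, 2 rose, Cd36, a fatty acid transporter of the cell surface, by 1.05 and Etfa, which passes electrons from acyl-CoA dehydrogenases, by 0.60. The median was 0.22 and 0.30 with length and GC content removed. None of 35 genes of glycolysis and glycogen passed, with 3 at an unadjusted p under 0.05 and a median of 0.09. Car3 (ENSMUSG00000027559, chromosome 3, 14863512 to 14872523), the carbonic anhydrase of muscle and fat, stood at 396, 245 and 288 FPKM in the young libraries and 809, 718 and 706 FPKM in the old libraries (log2 fold change 1.29, SE 0.22, limma adjusted p = 0.0307), so the lowest old value was well above the highest young one. The other 9 carbonic anhydrases tested did not pass, and Car9, which is induced by low oxygen, had -1.32 (adjusted p = 0.0521). Nadk, which makes NADP from NAD, fell by 0.88 and was the only call among 15 NAD genes. The summed level of 16 fast fibre genes was 40954 to 47062 FPKM in the young and 51740.0 to 61418 FPKM in the old libraries, without overlap. The part of this higher level of fibre transcripts in the proteasome and mitochondrial differences was not tested. In tissue RNA of this kind, fewer cells of a type and less RNA per cell cannot be told apart.

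Most fast fibre genes lay higher in old muscle, and the single call among them went the other way. Of 16 genes 10 had a log2 fold change above 0, and for 8 every old library exceeded every young one, with the reverse in 1. Over all genes these last shares were 19.0% and 18.1%. The median was 0.21, 0.17 with the length trend removed and 0.07 under scaling to total reads. The shorter 8 genes had a median of 0.44 and the longer 8 one of -0.13. Library medians of the whole list did not overlap, and 8 genes had an unadjusted p under 0.05 in limma. Myh1 (ENSMUSG00000056328, chromosome 11, 67200052 to 67224575), the myosin heavy chain of type 2X fibres, stood at 1804, 2875 and 1652 FPKM in the young libraries and 1071, 1099 and 891 FPKM in the old libraries (log2 fold change -1.01, SE 0.21, limma adjusted p = 0.0362) and was the only call. Its old values were all below the young ones, and with the length trend removed it had -0.93 (limma adjusted p = 0.0512). Myh2, the type 2A chain, had -1.39 and overlapping groups (adjusted p = 0.176), and Myh4, the type 2B chain, had -0.02. No slow or embryonic fibre gene passed (0 of 16 and 0 of 12, with 5 and 1 at an unadjusted p under 0.05 in limma). In the slow fibre list the shorter 8 genes had a median of 0.23 and the longer 8 one of -0.20. Chrna1, the alpha subunit of the muscle acetylcholine receptor, which fibres express widely after loss of the nerve, stood at 11.1, 16 and 13 FPKM in the young libraries and 23.4, 43.1 and 64.4 FPKM in the old libraries (log2 fold change 1.60, SE 0.34, limma adjusted p = 0.0358). It was the only call among 21 genes of the neuromuscular junction and denervation. Chrnd and Gadd45a, other genes that rise with denervation, had 0.92 and 1.15 without passing (adjusted p = 0.121 and 0.0822). Dok7 and Agrn, which act in receptor clustering at the junction, had -0.43 and -0.47 (adjusted p = 0.0823 and 0.150). In this list 8 genes were below 0 and the library medians overlapped (median log2 fold change 0.10). The old libraries lay above all young ones for 4 of the 21 genes and below them for 4. Over all genes these shares were 19.0% and 18.1%, so both counts were near the background. Among 26 genes of calcium handling, Sln, an inhibitor of the calcium pump, was the only call (2.57). The micropeptide gene Mrln, which also restrains the pump, had 0.94 (adjusted p = 0.0647).

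Genes of giant sarcomere and membrane-skeleton proteins were lower in the deposited values, and less so with the length trend removed. Of 26 genes, 5 fell, none rose and 25 had a log2 fold change below 0. Dst (ENSMUSG00000026131, chromosome 1, 33908225 to 34308661), dystonin, a linker of the cytoskeleton, stood at 9.69, 10.1 and 11.4 FPKM in the young libraries and 5.94, 6.5 and 4.83 FPKM in the old libraries (log2 fold change -0.85, SE 0.20, limma adjusted p = 0.0467). The spectrin gene Sptan1 fell by 0.65 and Ahnak by 0.62. Ttn, titin, had -0.47, Neb, nebulin, -0.33 and Dmd, dystrophin, -0.07, and none of these passed (adjusted p = 0.187, 0.288 and 0.818). The genes had a median length of 17300 bases, against 3837 for all tested genes. Removal of the length trend brought the median from -0.40 to -0.23 and Ttn to -0.08, and no member passed. With GC content removed too, the median was -0.04 and the value of Dst -0.37 (adjusted p = 0.242).

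Regulators of chromatin fell as a group in the deposited values. Of 61 genes, 11 fell, none rose, and for 44 every old library lay below every young one, against 18.1% of all genes. Library medians were 0.14, 0.20 and 0.20 in the young and -0.18, -0.13 and -0.18 in the old libraries. Kmt2d (ENSMUSG00000048154, chromosome 15, 98831669 to 98871204), a histone H3 methyltransferase that acts at enhancers, stood at 5.02, 5.64 and 4.87 FPKM in the young libraries and 2.02, 2.87 and 2.7 FPKM in the old libraries (log2 fold change -1.02, SE 0.20, limma adjusted p = 0.0331). The related Kmt2a fell by 0.86, the DNA methyltransferase Dnmt3a by 0.87 and Baz2a by 0.64. Dot1l, a histone H3 methyltransferase of another kind, stood at 14.2, 14 and 11.4 FPKM in the young libraries and 6.76, 6.65 and 6.48 FPKM in the old libraries (log2 fold change -0.98, SE 0.14, limma adjusted p = 0.0287). These genes are long as well, with a median of 11476 bases. The median of -0.34 became -0.20 with length removed, when 2 members passed in a background of 0.913% lower, and -0.09 with length and GC content removed. Within the list, however, the longer 30 genes were not the lower ones, with a median of -0.32 against -0.42 in the shorter 31. This list and the mitochondrial ribosome are among the exceptions, since the shorter members had the higher median in 37 of the 49 lists that were divided by length.

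Genes of RNA production and processing differed in both directions. In the Mediator and RNA polymerase II list (38 genes), the small subunit genes Polr2k, Med30 and Med29 rose and Med12, a large subunit of the kinase module, fell. Polr2k stood at 18.1, 18.4 and 15.7 FPKM in the young libraries and 40.3, 60.4 and 48.7 FPKM in the old libraries (log2 fold change 1.49, SE 0.23, limma adjusted p = 0.0301), and Med12 fell by 0.63. The shorter 19 of these genes had a median of 0.38 and the longer 19 one of 0.03. Of 45 splicing regulators, Srsf7 rose by 0.59, while Srrm2 and Son, scaffolds of nuclear speckles encoded by long transcripts, fell by 0.68 and 0.45. In that list the shorter genes did not have the higher median (0.07, against 0.17 in the longer ones). The core Sm and Lsm genes had a median of 0.35, with Snrpd2 higher by 0.88 among 19 tested. Translation factors rose in 5 of 38 genes. Eif3e, a subunit of the initiation factor eIF3, stood at 19, 16.9 and 18 FPKM in the young libraries and 28, 32.1 and 31.1 FPKM in the old libraries (log2 fold change 0.75, SE 0.11, limma adjusted p = 0.0290), and Eif2s2 and Eif2s1, the beta and alpha subunits of eIF2, rose by 0.71 and 0.48. The median of the list was 0.16 before and 0.16 after both trends were removed, and it was 0.15 in its shorter and 0.17 in its longer genes. Under scaling to total reads it was 0.03. The Mediator and polymerase list then had 0.04, the splicing regulators 0.03 and the Sm and Lsm genes 0.22.

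Of 23 long non-coding RNAs, 5 rose, where 3.39% of all genes rose, and 1 fell. Those that rose, Gas5, Snhg5, Snhg8, Snhg1 and Snhg14, are known as hosts of small nucleolar RNAs. The list was not drawn up for that feature, which was seen after the values, and host genes were not tested as a group. Gas5 stood at 8.04, 7.51 and 8.45 FPKM in the young libraries and 14.8, 14.7 and 15.4 FPKM in the old libraries (log2 fold change 0.90, SE 0.17, limma adjusted p = 0.0308), with little spread among the old libraries. The others rose by 0.77, 1.17, 0.99 and 1.49. Snhg6, Snhg12 and Zfas1, other hosts in the list, had 0.88, 0.41 and 0.45 without passing (adjusted p = 0.0626, 0.281 and 0.243). Malat1, which stays in the nucleus, was the only one of the list to fall, at 171, 148 and 227 FPKM in the young libraries and 51.2, 72.2 and 84.6 FPKM in the old libraries (log2 fold change -1.40, SE 0.25, limma adjusted p = 0.0307). Neat1, another nuclear RNA, had -0.21 (adjusted p = 0.491). The use of strand in counting is not known, so reads of genes on opposite strands cannot be told apart here.

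Genes of the circadian clock moved in both directions. Its activators BMAL1 and CLOCK drive output genes and their own repressors, and the REV-ERB receptors in turn repress BMAL1. Dbp, an output transcription factor, stood at 8.27, 6.68 and 4.06 FPKM in the young libraries and 13.8, 25.7 and 32.3 FPKM in the old libraries (log2 fold change 1.87, SE 0.33, limma adjusted p = 0.0307), and Nfil3, which represses the sites that DBP activates, fell by 0.71. Nr1d2, REV-ERB-beta, stood at 20.3, 16.6 and 14.4 FPKM in the young libraries and 25.6, 34.8 and 28.3 FPKM in the old libraries (log2 fold change 0.79, SE 0.16, limma adjusted p = 0.0337). Arntl, BMAL1, stood at 2.69, 3.16 and 3.91 FPKM in the young libraries and 2.09, 1.51 and 1.53 FPKM in the old libraries (log2 fold change -0.89, SE 0.19, limma adjusted p = 0.0367). In all 3 the groups did not overlap, and Dbp and Arntl lay farthest apart between young replicate 3 and old replicates 2 and 3. Tef and Hlf, relatives of DBP, had 0.59 and 0.84, and Npas2, a relative of CLOCK, -1.11 (adjusted p = 0.0525, 0.146 and 0.0536). Per1, Per2 and Cry1, the core repressors, did not pass (-0.39, 0.55 and 0.08). The 4 genes Dbp, Tef, Hlf and Nfil3 had a median of 0.72, 0.81 with length removed and 0.86 with length and GC content removed. The labels do not state the hour of collection, and its part in these values was not tested.

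Hormone and growth signalling gave few calls, while the IGF, Wnt and Notch lists lay lower in the old libraries. Hsd11b1 (ENSMUSG00000016194, chromosome 1, 193221634 to 193264075), which regenerates active glucocorticoid inside cells, stood at 1.3, 1.28 and 1.45 FPKM in the young libraries and 4.46, 3.45 and 2.84 FPKM in the old libraries (log2 fold change 1.33, SE 0.17, limma adjusted p = 0.0246). It passed with length and GC content removed too (1.22, adjusted p = 0.0470). Among genes of the glucocorticoid response, none of the other 18 genes of that list passed, and Fkbp5 and Tsc22d3 had -0.12 and 0.31 (adjusted p = 0.877 and 0.487). The library medians of that list were -0.07, -0.03 and -0.03 in young and 0.01, 0.02 and 0.00 in old libraries, and its median log2 fold change was 0.07, 0.19 with length removed and -0.06 under scaling to total reads. In the IGF and insulin list, every old library lay below every young one for 15 of 24 genes, against 18.1% of all genes, and 2 fell. Irs1, the adaptor that couples both receptors to their kinases, stood at 6.75, 9.15 and 7.54 FPKM in the young libraries and 3.34, 3.77 and 2.86 FPKM in the old libraries (log2 fold change -1.21, SE 0.22, limma adjusted p = 0.0307). Igf2bp2, which binds mRNAs of this pathway, fell by 1.57. The median of the list went from -0.27 to -0.17 and -0.03 on removal of length and then of both trends. In the TGF-beta and BMP list (35 genes), Mstn and the receptor Bmpr1a rose (0.47 for the receptor), and Bmp1, a protease that trims procollagen, and Ski, a repressor of SMADs, fell by 0.76 and 0.47. Of 40 Wnt genes, the coreceptor Lrp5 fell by 0.60 and Dkk3 rose by 1.84, and of 26 Notch genes none passed in limma (8 had an unadjusted p under 0.05). For 12 of the 26 Notch and 8 of the 40 Wnt genes every old library lay below every young one, against 18.1% of all genes. The Wnt count was thus near the background. The library medians did not overlap in either list (Notch and Wnt median log2 fold change -0.22 and -0.26, and -0.10 and -0.03 with length and GC content removed). Jun was the only call among 26 immediate early genes, higher by 0.57.

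Of 13 mast cell genes listed, 10 were tested, and 3 rose. In these 10 every old library exceeded every young one, against 19.0% of all genes. The groups overlapped in the other 3, Tpsab1, Hdc and Ms4a2, which were too low to test. Kit and Mrgprb1 exceeded the test minimum of 0.5 FPKM in every old library but in 0 and 1 of the young ones, so the choice of tested genes is not independent of the group. Cpa3 (ENSMUSG00000001865, chromosome 3, 20215620 to 20242181), the carboxypeptidase of their granules, stood at 5.61, 5.05 and 7.47 FPKM in the young libraries and 16.6, 13 and 30.4 FPKM in the old libraries (log2 fold change 1.64, SE 0.34, limma adjusted p = 0.0356). Fcer1a, a subunit of the IgE receptor, rose by 2.31 and the receptor gene Mrgprb1 by 1.65. The protease genes Cma1 and Mcpt4 had 0.90 and 0.68 (adjusted p = 0.0618 and 0.112). Summed over the list the level was 41.5 to 61.4 FPKM in young and 77.7 to 113 FPKM in old libraries, and its median log2 fold change was 0.68, 0.69 and 0.73 under the 3 treatments of length and GC content. T and NK cell genes had a median of 0.44 with 1 call among 25, Klrd1, a receptor subunit of NK cells, at 1.34, 2.01 and 1.9 FPKM in the young libraries and 4.79, 5.65 and 5.07 FPKM in the old libraries (log2 fold change 1.53, SE 0.34, limma adjusted p = 0.0405). Cd8a had 1.56 and Cd4 -1.34, neither passing (adjusted p = 0.113 and 0.117). Of 20 B and plasma cell genes, 11 were tested and none passed in limma (0 at an unadjusted p under 0.05), with overlapping libraries and a summed level of 38.6 to 73.1 FPKM in young and 51 to 95.3 FPKM in old libraries. Of 15 neutrophil genes, 6 were tested and none passed, with 3 at an unadjusted p under 0.05. Csf3r, the receptor of the growth factor G-CSF, had -0.92 and S100a8, a calcium-binding protein of neutrophils, 1.20 (adjusted p = 0.0587 and 0.0953). The B cell gene Ms4a1 and the neutrophil genes Cxcr2, Elane and Mpo were below 0.5 FPKM in all 6 libraries. Ly6g was listed at 0, but so was Med10, a Mediator gene of general use, and no level is read from such a 0.

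The macrophage and fibro-adipogenic lists had negative medians, with old replicate 1 nearest to the young libraries. Of 22 macrophage genes 20 were below 0 (median -0.31) and none passed. An unadjusted p under 0.05 in limma was found for 5, against 3748 of all 14233 genes. For 3 of the 22 every old library lay below every young one, against 18.1% of all genes. Neither count was above its background. Adgre1, the marker F4/80, stood at 27.6, 37.9 and 55.6 FPKM in the young libraries and 24.4, 19.5 and 22.9 FPKM in the old libraries (log2 fold change -0.80, limma adjusted p = 0.139). The library medians of the macrophage list were -0.09, 0.26 and 0.31 in young and 0.12, -0.48 and -0.16 in old libraries, in which old replicate 1 lay above young replicate 1. Genes of resident and alternatively activated macrophages went both ways: Mgl2, Retnla and Ear2 rose, and Cd5l and Stab1 were among those that fell. Stab1, a scavenger receptor, stood at 10.7, 15.1 and 16.2 FPKM in the young libraries and 7.78, 5.85 and 6.9 FPKM in the old libraries (log2 fold change -1.01, SE 0.21, limma adjusted p = 0.0335). Mgl2, a lectin, rose by 0.86 and Ear2, a ribonuclease with close relatives in the genome, by 1.49. Csf1, the growth factor of macrophages, fell by 0.71. Of 19 fibro-adipogenic genes, Cd248, Islr and Osr1 fell by 0.85, 0.95 and 0.69. The median of that list was -0.46, with library medians of 0.23, 0.25 and 0.28 in young and 0.10, -0.32 and -0.42 in old libraries. With the length trend removed it was -0.56, farther from 0 than before, and 4 members passed.

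Interferon response and complement genes had negative medians without a single call. The interferon list (46 genes) had a median of -0.43, with library medians of 0.29, 0.17 and 0.17 in young and 0.24, -0.27 and -0.45 in old libraries. Old replicate 1 thus lay among the young libraries, and without it the median was -0.60. In limma, 7 of these genes and 6 of 18 complement genes had an unadjusted p under 0.05, against 3748 of all 14233 genes. C3, the central complement protein, had -1.16 (adjusted p = 0.0523). The same library lay highest of the old ones for macrophage and fibro-adipogenic genes.

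**Figure D3:**
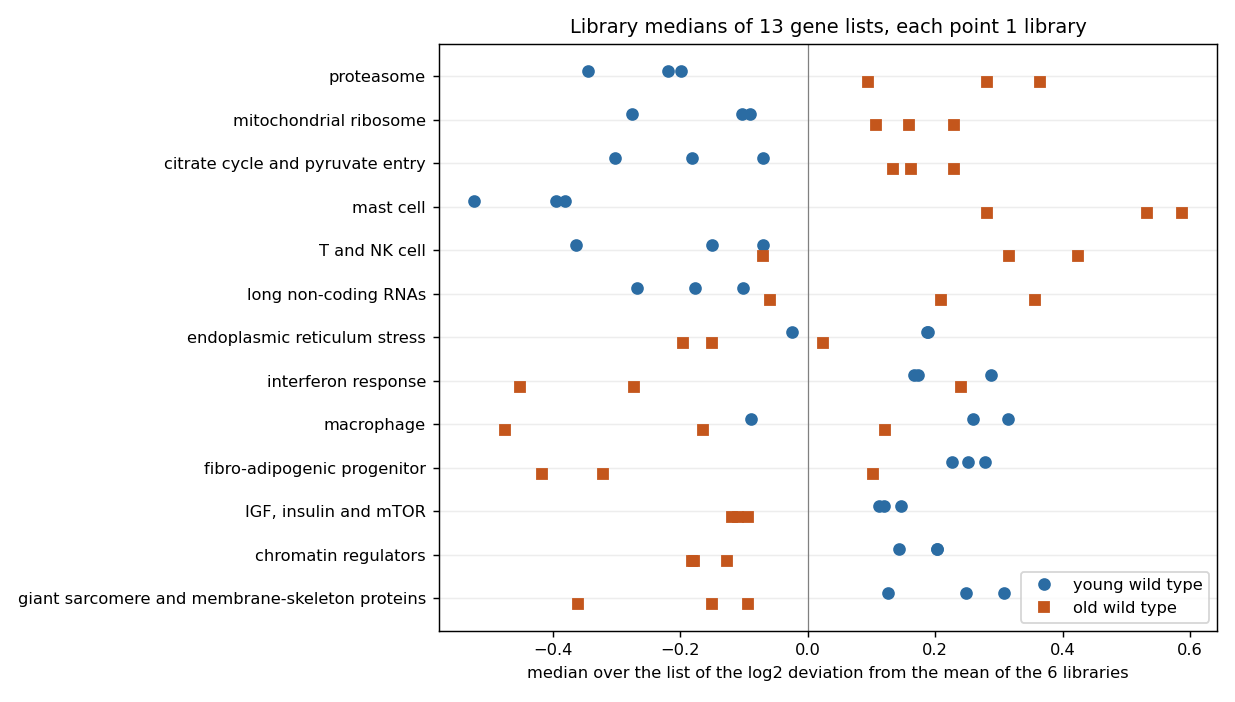
Median over each of 13 gene lists of the log2 deviation of a gene from its mean over the 6 libraries, 1 point per library, young wild type as circles and old wild type as squares. Groups are apart for the proteasome (-0.20 at most in young, 0.09 at least in old) and for chromatin regulators, and 1 old library lies among or near the young ones for the interferon, macrophage and fibro-adipogenic lists.

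Markers of stem cells, new fibres, division and senescence gave few calls. Pax7, the defining transcription factor of satellite cells, stood at 1.51, 1.48 and 1.07 FPKM in the young libraries and 0.905, 0.762 and 0.904 FPKM in the old libraries (-0.59, limma adjusted p = 0.160), and none of 16 satellite cell genes passed (7 at an unadjusted p under 0.05). Mef2a, a transcription factor of muscle differentiation, was the only call among 21 genes of that list, at 11, 11 and 10.2 FPKM in the young libraries and 13.8, 16.3 and 17.4 FPKM in the old libraries (log2 fold change 0.55, SE 0.12, limma adjusted p = 0.0411). Of 35 cell cycle genes none passed in limma, 4 had an unadjusted p under 0.05 and 28 were below 0 (median -0.33, unchanged at -0.33 with length removed). Cdkn1a, the p53 target p21, had 0.42 (adjusted p = 0.426), and Cdkn2a, which encodes p16 and ARF, 0.57 (adjusted p = 0.506). None of 26 senescence and p53 genes passed (3 at an unadjusted p under 0.05). Gsta4, a glutathione transferase that removes products of lipid oxidation, stood at 4.54, 4.73 and 4.8 FPKM in the young libraries and 11.6, 8.96 and 11.1 FPKM in the old libraries (log2 fold change 1.15, SE 0.17, limma adjusted p = 0.0301) and was the only call among 31 antioxidant genes. Steap3, an iron reductase of endosomes, fell by 0.47, the only call among 16 iron genes.

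Across all genes, shorter genes were higher and longer genes lower in old muscle. In the shortest decile of genes, of 56 to 1056 bases, the median log2 fold change was 0.31, with 93 genes called higher and 13 lower. In the longest decile, of 9212 bases and more, it was -0.16, with 13 called higher and 81 lower. The slope of log2 FPKM on log2 length, after centring on the 6 libraries, was 0.035, 0.054 and 0.061 per doubling of length in the young and -0.045, -0.033 and -0.072 in the old libraries. Every old library thus sloped down where every young library sloped up, and the difference of -0.100 had an exact permutation p of 0.1 (two-sided), the smallest that 3 libraries against 3 allow. It ranged from -0.089 to -0.108 when 1 library was left out. Without ribosomal, respiratory chain, matrix and mitochondrial genes it was -0.092, and in protein-coding genes alone -0.107. With the genomic span of a gene in place of its deposited length it was -0.039. The deposited length of a gene need not be that of the transcript expressed, which was not measured here. Across genes, which are not independent replicates, Spearman's rho of the fold change with length was -0.24 in the 13998 genes outside the ribosome, respiratory chain and matrix lists.

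**Figure D4:**
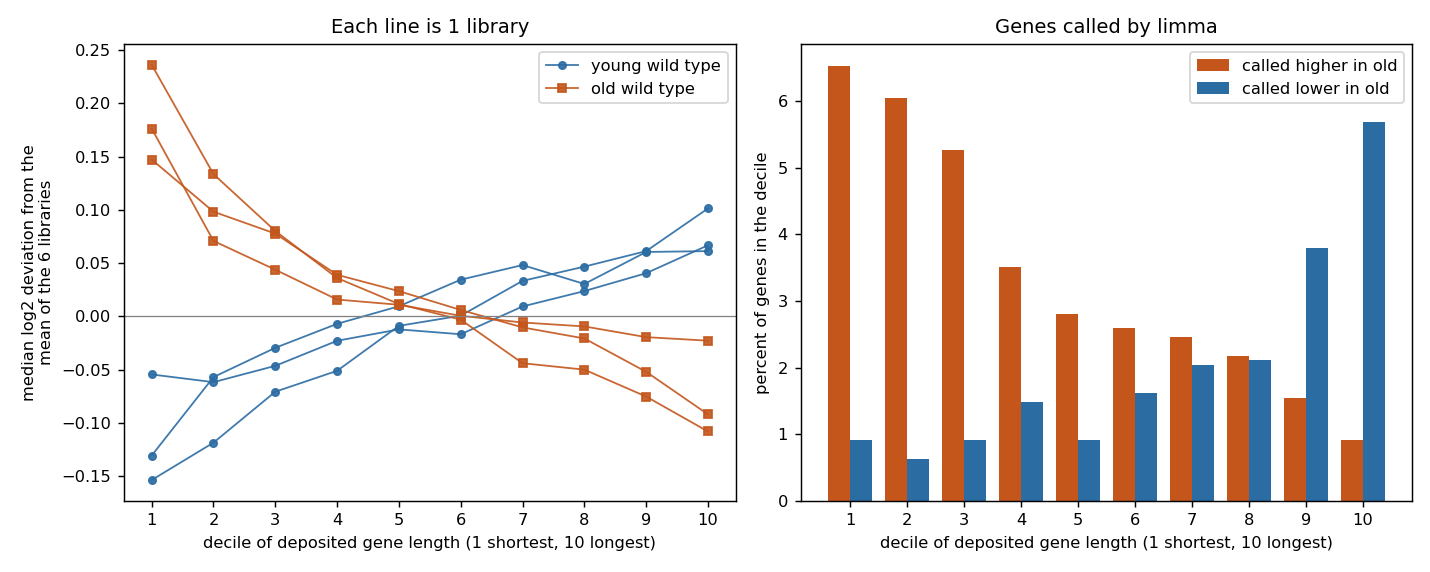
Left, median log2 deviation from the mean of the 6 libraries in deciles of gene length, 1 line per library, young wild type as circles and old wild type as squares. Right, percent of genes in each decile called higher or lower in old muscle. The share called higher runs from 6.53% in the shortest to 0.913% in the longest decile. On the left the old lines fall relative to the young ones, and the centring on the 6 libraries sets their opposite directions.

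The fold change fell with rising GC content as it did with rising length. The lowest decile of genes by GC content had a median log2 fold change of 0.36, with 163 called higher and 5 lower, and the highest decile one of -0.19, with 4 higher and 58 lower. Across genes the fold change had a rho of -0.36 with GC content. Length had a rho of -0.19 with GC content, so the 2 properties overlap little, and longer genes tended to have lower GC content. Length accounted for 6.08% of the variance of the fold change, GC content for 11.9% and both together for 20.9%. In the low, middle and high tertile of genes by GC content, rho with length was -0.30, -0.39 and -0.37. Short genes of low GC content had a median of 0.41 and long genes of high GC content one of -0.37. Read depth, the mitochondrial share of reads and these slopes all differed between the young and old libraries, and the part of RNA quality or library preparation in them was not tested.

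Removing the length trend from each library lowered the number of calls to 375 (245 higher, 1.72%, and 130 lower, 0.913%), and 338 of these were among the 768. All 768 kept their direction. Their median size of log2 fold change went from 0.80 to 0.74, and to 0.54 with GC content removed as well. With GC content alone removed 89 genes passed, and with both removed 13 (0.0914%), 12 of them among the 768. By list, the length trend by itself gave a median of at most 0.19 in size, in the giant sarcomere list, and 3 of the 63 list medians changed sign on its removal. Of the 63 medians, 32 came nearer to 0 and 31 moved away. The median changed most in the B and plasma cell list (11 genes, from 0.28 to 0.01), followed by the giant sarcomere list (from -0.40 to -0.23), the neutrophil list (6 genes, from -0.18 to -0.32) and the chromatin list (from -0.34 to -0.20). That of the proteasome went from 0.51 to 0.46. Over the 60 lists outside the 3 best known ones, the median change had a rho of -0.14 with median length and -0.24 with median GC content, given as a description of lists that share libraries and some genes.

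Some genes went against the trend with deposited length, which need not be the length of the transcript expressed. Of the 482 genes called higher, 51 lay in the longest quartile of genes (above 6180 bases) and 220 in the shortest (below 2142 bases), and of the 286 called lower, 30 lay in the shortest quartile and 148 in the longest. Long genes that rose included Clk1, a kinase of splicing factors (0.77), Uba3, the activating enzyme of NEDD8 (0.73), Tatdn1 (0.91), Fkbp3 (1.19), Bcap29 (0.99) and Rsrc2 (0.66). Short genes that fell included Twist1, a transcription factor of mesenchymal cells, at 4.62, 5.77 and 6.78 FPKM in the young libraries and 3.57, 2.82 and 2.77 FPKM in the old libraries (log2 fold change -0.88, SE 0.19, limma adjusted p = 0.0367), and Cotl1, an actin-binding protein (-1.01). Others were the lipase-like Pnpla3 (-0.84), Dnttip1 (-0.53), a component of histone deacetylase complexes, and the secreted C1qtnf2 (-0.72). All 11 named here passed with length removed, and none of them with GC content removed as well (limma adjusted p of 0.0625 to 0.119).

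The genes with the smallest p were mostly outside the lists. Those that rose included Pdcd5, at 12.4, 13.9 and 10.1 FPKM in the young libraries and 25.5, 29.4 and 27.1 FPKM in the old libraries (log2 fold change 1.17, SE 0.18, limma adjusted p = 0.0301), Cenpq, a kinetochore protein (1.32), Aimp1, a scaffold of tRNA synthetases (0.82), Eloc, elongin C (0.97), the helicase gene Ddx52 (0.67) and Igip (1.14). Zfp97 and Zfp960, zinc finger genes with close relatives in the genome, had 1.54 and 1.54, and their reads may be shared among copies. Those that fell included Pkd1, polycystin-1 (-1.01), the kinase gene Hipk2 (-1.47), Myh10, a non-muscle myosin (-1.20), the transporter Abcc5 (-0.64), Dpysl3 (-1.13), Sec14l5 (-0.99), Nhlrc2 (-0.90) and Ankrd52 (-0.88).

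The 12 genes called in both the deposited values and those without length and GC trends included Creld2 and Hsd11b1, described above. Shox2, a homeobox transcription factor, stood at 2.83, 2.71 and 2.95 FPKM in the young libraries and 1.27, 1.06 and 1.24 FPKM in the old libraries (log2 fold change -1.19, SE 0.16, limma adjusted p = 0.0258), and with both trends removed it had -1.17 (adjusted p = 0.0313). Nov, a secreted matricellular protein also named CCN3, stood at 17.7, 13.9 and 18.5 FPKM in the young libraries and 9.85, 9.09 and 10.5 FPKM in the old libraries (log2 fold change -0.76, SE 0.14, limma adjusted p = 0.0308), and had -1.01 with both removed (adjusted p = 0.0294). In both genes the old libraries lay close together, below the young ones. The mitochondrial transfer RNA genes mt-Tn and mt-Tc were higher, at 3.15 and 2.55 with both removed. They are 71 and 66 bases long, near the shortest gene tested at 56 bases, so the length trend is fitted there at its edge. The RNA was selected by poly-A, and whether their reads come from mature transfer RNA was not tested. Of the remaining 6, the processed pseudogenes Gm6421 and Dnajc19-ps were higher (1.12 and 0.97). The non-coding RNA genes Gm8066, Gm15893 and Platr32 and the gene F830016B08Rik, annotated as protein-coding, were lower (-2.75, -2.19, -2.97 and -2.41). Pseudogenes such as Dnajc19-ps can take reads of their parent genes, so the identity of such signals is uncertain.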

How the data were processed

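RNA of injured tibialis anterior muscle was selected by poly-A and sequenced, per the labels' protocols. HISAT2 2.2.1, featureCounts 2.1.1, DESeq2 1.42.0 and the build mm39 are named in the submitters' processing notes. The deposited positions were those of GRCm38 for 98.3% of 54495 gene identifiers shared with GENCODE M21. The authors deposited FPKM for 54532 genes with gene lengths. FPKM times length gave whole reads for 100% of values (tolerance 0.001), and these counts, recovered from the deposited values, served for depth and filters. A gene was tested with at least 0.5 FPKM and 10 reads in 3 libraries, in 1 fit of 9 libraries with limma 3.58.1 (R 4.3.3, trend and robust, Benjamini-Hochberg adjustment) on log2(FPKM + 0.1). Trends with log2 length and GC content (of GENCODE M21 transcripts, 14219 genes) were removed in each library by splines of 5 degrees of freedom. The slope difference was tested by exact permutation. Fits were tested on simulated data. Members and lists were chosen with earlier results of these data known. Named genes were the 12 higher and 12 lower calls of smallest p (mean log2 FPKM of at least 1, groups without overlap, established symbol), 8 higher calls of the longest and 8 lower calls of the shortest quartile, the genes called with and without both trends, up to 4 called members of each list, and 13 genes always given. Other list members are given as values. A few members are not reported here.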

Additional observations from a re-analysis of the deposited data

How the results depend on the processing

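The number of calls depended on the libraries and on the fit. Leaving out 1 library gave 0 to 1755 calls in place of 768, and 0 to 480 in place of 375 with the length trend removed. It was 5 with no filter beyond 1 read (29608 genes tested), 346 when scaled to total reads, with 27.7% of the calls higher where the deposited scaling had 62.8%, 375 with length, 89 with GC content and 13 with both removed, 1653 in the 6 wild-type libraries alone, and 3001 in voom given quality weights per library. With length removed in the 6 libraries, chosen after seeing the data, it was 1319, and 145 with both removed. Pseudocounts of 0.01 and 1 gave 709 and 833 calls, and voom alone 1005. Apart from the settings that change the genes or libraries, the cause was not tested. With the replicate number as a block no gene passed (3386 at an unadjusted p under 0.05 in limma), and 6 passed with the replicate block and both trends removed. Libraries of the same number correlated at -0.08, -0.06 and -0.05 between young and old, so the numbers were not taken as pairs. The 131 called genes that the named gene rule took kept their direction under every alternative that gave them a value, 23 or 24 for each gene. All 768 calls had groups without overlap, so leaving out a library could not turn their direction. List medians moved by more than the spread between replicates in 27 of 378 values with 1 library left out and in 69 of 252 others. Depth limits genes of a few reads.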

Other observations

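A further set of lists gave no calls in limma, and the number of their genes at an unadjusted p under 0.05 is given for each. Among all 14233 tested genes 3748 had such a p, and the counts are to be read against that share. Of 10 genes of MHC class II presentation, 2 had such a p (median log2 fold change -0.26), of 19 of class I presentation 3 did (-0.15), and of 20 imprinted growth genes 5 did (-0.39). Among cells of the tissue, the counts were 4 of 23 endothelial genes (median 0.15), 2 of 16 adipocyte genes (0.07), 1 of 12 pericyte and smooth muscle genes (-0.02) and 0 of 11 Schwann cell genes (-0.20). They were 1 of 8 tenocyte genes (median -0.31) and 1 of 13 dendritic cell genes (-0.08). Of 30 chemokine genes 7 had such a p (median -0.01), and of 14 creatine and adenine nucleotide genes 4 did (0.10).

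The 3 old P311-/- libraries, which belong to no comparison here, had slopes of log2 FPKM on log2 length of -0.020, 0.019 and 0.049 per doubling, on the same centring as the wild-type libraries. Their slopes per 10 points of GC content were 0.015, 0.090 and 0.230.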
